A study of Mus musculus with 39 samples.

Results

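Gene expression in the liver and in the epididymal white adipose tissue (WAT) was compared in mice that had drunk dexamethasone (Dex), a synthetic glucocorticoid, for 3 weeks. All 5 livers and all 4 fat depots with that treatment were used, which is 9 of the 39 samples of the series. The mice were adult male C57BL/6 animals on chow, given 10 µg/ml Dex in the drinking water and killed after a glucose tolerance test. The livers came from 2 wildtype (E47+/+) and 3 E47KO (E47-/-) mice, and the depots from 2 wildtype and 2 E47KO mice. E47KO mice lack the E47 product of Tcf3 in every cell type of the body, and the wildtype animals were their littermates. By the animal numbers the authors recorded, no mouse gave both tissues, so the comparison is between animals and tissue cannot be told apart from the group of mice or the series of libraries. Fat without Dex was not analysed here, so each value below is a difference between 2 Dex-exposed tissues and not a response to Dex.

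Glucocorticoids enter cells and bind the glucocorticoid receptor (GR), which moves to the nucleus and switches genes on or off. In hepatocytes they favour the making of glucose from amino acids, lactate and glycerol, while in adipocytes they act on the storage and release of triglyceride, which supplies that glycerol. Hepatocytes also secrete most plasma proteins and make bile acids and urea, and adipocytes secrete hormones such as leptin and adiponectin.

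The poly(A) libraries held 17.5 to 21.4 M gene counts (M, mega-counts) in liver and 34.5 to 43.0 M in WAT, so low genes were measured more finely in WAT. Levels are counts per mega-count (CPM) after TMM scaling, which assumes that most genes do not differ between libraries. They are given as mean ± SD over 5 livers or 4 depots. Where single libraries are listed, the order is wildtype 1 and 2 and E47KO 1, 2 and 3 for liver, and wildtype 1 and 2 and E47KO 2 and 3 for WAT. The fold changes are fitted log2 values ± SE, liver minus WAT, so a positive value means more in liver. On log2 levels the libraries correlated across genes at 0.972 to 0.990 within a tissue and at 0.588 to 0.637 between tissues. The gene Tcf3 itself did not separate the genotypes in a gene count, which adds its E12 and E47 products and so is no check of the deletion. It was at 14.5, 15.9, 19.1, 19 and 15.2 CPM in liver and at 16.4, 15.1, 15.5 and 14.6 CPM in WAT, which overlap.

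More than 3 in 4 genes differed between the tissues, so a count of called genes carries little by itself. Of 16054 genes tested, 12731 passed at an adjusted p below 0.05, which is 79.3%, with 5892 (36.7%) higher in liver and 6839 (42.6%) higher in WAT. A test against a 2-fold difference left 7274 genes (45.3%), of which 3109 (19.4% of those tested) were higher in liver and 4165 (25.9%) higher in WAT. The libraries of the tissues did not overlap for 73.0% of the genes, 33.8% higher in every liver and 39.3% higher in every depot. A call below means this second test, of over 2-fold, unless the text says that a gene passed the test of any difference. Each count of called list members below is to be read against 19.4% in liver and 25.9% in WAT. The direction of small differences rests on the scaling. With library totals in place of TMM, all values moved by -0.81 toward WAT, and the share of liver-higher genes fell from 46.3% to 23.5% among the calls of any difference and from 42.7% to 22.5% among those over 2-fold. A fitted value between 0 and 0.81 therefore has the opposite sign on library totals.

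**Figure D1:**
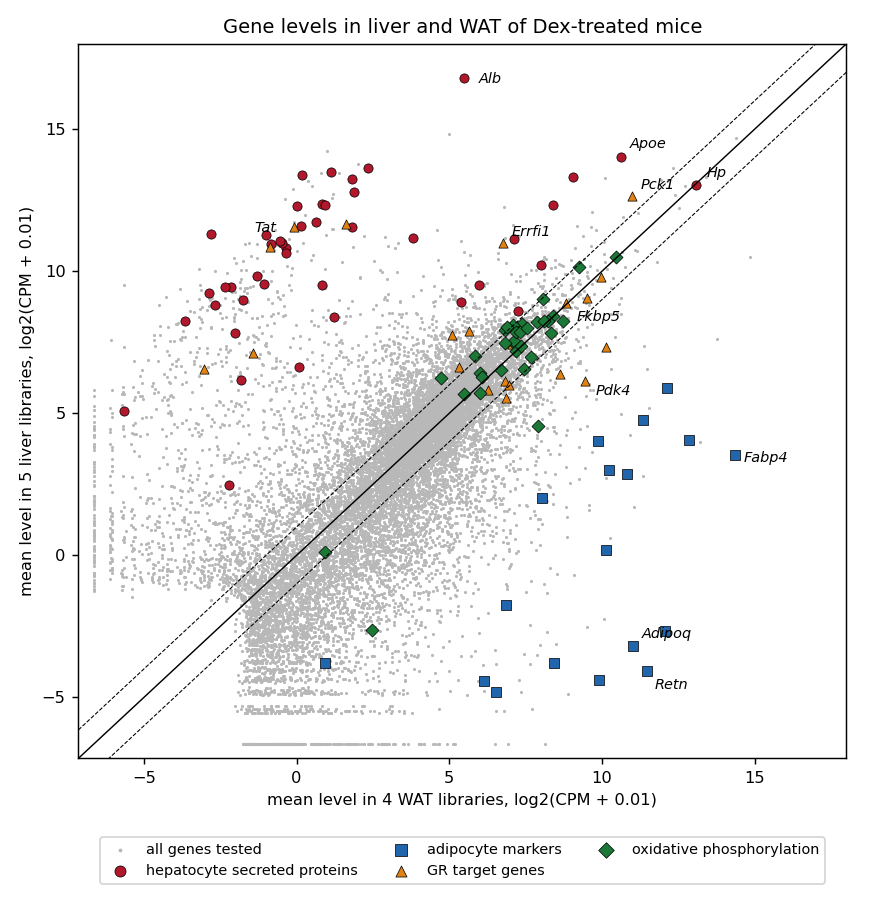
Mean level of each tested gene in the 4 WAT libraries (x axis) and the 5 liver libraries (y axis), both as log2(CPM + 0.01), with 4 gene lists coloured, the line of equal levels drawn solid and the lines of a 2-fold difference dashed. Hepatocyte secreted proteins lie at the upper left and adipocyte markers at the lower right, while Hp sits on the line of equal levels at 8502 ± 1535 and 8684 ± 478 CPM.

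The gene with the most liver counts was albumin (Alb), the main plasma protein, with 119631, 111151, 104220.4, 101959 and 139187 CPM in the livers. The 10 liver genes with the highest CPM further held the carrier proteins and lipoproteins Apoe, Apoa1 and Ahsg, the protease inhibitors Serpina3k and Mug1, the pheromone carrier Mup20, the drug-metabolizing enzymes Cyp2e1 and Cyp3a11 and the mitochondrial mt-Co1. In WAT the first place was taken by Scd1, the desaturase that makes oleate, at 18651, 33524, 22616 and 43512 CPM, followed by mt-Co1, the fatty acid carrier Fabp4, the carbonic anhydrase Car3, mt-Cytb, the actin-severing and plasma protein Gsn, Hp, the lipase Lpl, mt-Nd1 and mt-Nd4. Of these, mt-Co1 stood in both lists of 10, at 26411 ± 1527 CPM in liver and 21576 ± 5545 CPM in WAT. Counts were more concentrated in liver, where 107 to 141 genes made up 50% of them, against 329 to 430 genes in WAT. Reads of Serpina3k, Mug1, Mup20, Cyp3a11 and their near-identical copies could be split or dropped by the authors' counting, so their levels are uncertain.

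The 44 plasma proteins that hepatocytes secrete were all measured, and 42 of them were called higher in liver and none in WAT, at a median of 11.15 against -0.13 over all genes tested. They took 19.0% to 22.4% of the liver counts and 1.57% to 1.68% of the WAT counts. The largest fitted differences were in Apoa4, a lipoprotein of fat absorption (14.23 ± 0.53), Apob, the core of very low density lipoprotein (13.24 ± 0.91), Ahsg, or fetuin-A (12.41 ± 0.79), and the complement component C9 (12.33 ± 0.55). Haptoglobin (Hp), which binds free haemoglobin, was the exception. It stood at 7696, 10482, 8121, 6622 and 9588 CPM in the livers and 9100.4, 8997, 8048 and 8591 CPM in the depots, the tissues overlapped, and the fitted difference was -0.02 ± 0.24 (adjusted p = 0.951), or -0.84 on library totals, where it did pass the test of any difference. The iron carrier Trf was higher in liver by 1.38 ± 0.27, but did not pass the over-2-fold test with all libraries, although it did without any one of 4 libraries (1.46 to 1.57). Apoe was also abundant in WAT, at 1573 ± 234 CPM, although 10.5-fold below its liver level of 16584 ± 2031 CPM.

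All 18 adipocyte markers were called higher in WAT, at a median of -9.39, or -8.71 where genes at the floor took their bounds. Resistin (Retn) was at 2436, 3218, 2812 and 3059 CPM in WAT and at or below 3 counts in every liver, so its level was at least 14677-fold higher in WAT, where 3 counts in each liver set the bound. On the same bound leptin (Lep), the satiety hormone, was at least 4869.7-fold higher in WAT, with 1207, 1029.6, 665 and 923 CPM. Adiponectin (Adipoq) was at 1709, 1871, 2576 and 2079 CPM in WAT and at 0 in 4 of 5 livers, with 0.503 CPM in the fifth, wildtype liver 1. The complement protease Cfd, or adipsin, differed by -14.72 ± 0.74. The smallest differences in the list were in Cidea, a lipid droplet protein of brown fat, at 0.0619 ± 0.109 and 1.88 ± 0.722 CPM, and in Lipe, the hormone-sensitive lipase, at 16.1 ± 2.55 and 939.5 ± 51.7 CPM in liver and WAT. Each tissue thus carried the markers of its label.

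Small amounts of each tissue's transcripts were seen in the libraries of the other. Albumin reached 17.3, 63.3, 50.7 and 47.8 CPM in the depots, lowest in wildtype WAT 1. Of the 44 hepatocyte transcripts, 36 to 43 exceeded 3 counts in a WAT library, and their median level there was 1 part in 7241 of the liver level in wildtype WAT 1, 1 in 1196 in wildtype WAT 2, 1 in 2538 in E47KO WAT 2 and 1 in 2120 in E47KO WAT 3. Summed over the list, WAT held 11647 to 12028 CPM, most of it Hp and Apoe, against 234334 to 308703 CPM in liver. Of the 18 adipocyte transcripts 9 to 13 exceeded 3 counts in a liver, with a summed level of 73.4 to 212 CPM against 48954 to 54469 CPM in WAT. Whether such transcripts were made in the tissue or carried over was not tested. In bulk tissue a lower level from fewer cells of a type cannot be told apart from less RNA per cell.

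The genes with the largest fitted differences, among those at 50 CPM or more in the higher tissue and with no overlap, were tissue products of known kinds. In liver these were the pheromone carriers Mup7, Mup10 and Mup14, Apoa4, Mug1, the uric acid pathway enzyme Urad, the bile acid enzyme Cyp7a1, the caffeine-metabolizing Cyp1a2, the organic anion carrier Slco1a1 and the glucuronosyltransferase Ugt2b34. Urad was at 0 in every depot and at 60.3, 66.1, 54.6, 54.8 and 46.7 CPM in the livers, at least 968-fold higher there. In WAT they were Lgals12, a lectin of the lipid droplet, Retn, Slc7a10, a carrier of small neutral amino acids, Cfd, the thyrotropin receptor Tshr, Lep, Adipoq, Apol6, the retinol carrier Rbp7 and the amino acid carrier Slc36a2. Lgals12, Slc7a10 and Tshr were at 0 in all 5 livers and at 277, 267, 316 and 271, 127, 109, 116 and 136 and 88.7, 100.2, 89.1 and 84.9 CPM in the depots, at least 1442-, 621- and 462-fold higher in WAT. In all, 157 genes were at 1 CPM or more in every liver and at or below 3 counts in every depot, and 337 genes showed the reverse. The depths differ between these counts, since in liver 3 counts are 0.196 CPM, against 0.0584 CPM in WAT.

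The stretch of 150 bases before the start of transcription is shown for 3 genes that stand for the pattern, Alb as the gene with the most liver counts, Adipoq as a fat hormone listed at 0 in most livers and Pck1 as a GR target used in both tissues. Capitals mark matches to 8 short motifs that were searched on both strands, among them CCAAT, the HNF1 core GTTAAT, the GC box GGGCGG and the E-box CANNTG, which E proteins such as E47 bind. The sequences are RefSeq's, build GRCm38.p6, read 5′ to 3′ on the plus strand of chr5:90460720-90460869, chr16:23146386-23146535 and chr2:173152923-173153072.
Alb: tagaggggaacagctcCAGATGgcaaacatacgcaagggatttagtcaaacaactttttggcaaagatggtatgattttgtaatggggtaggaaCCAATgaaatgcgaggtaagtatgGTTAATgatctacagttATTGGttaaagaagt
Adipoq: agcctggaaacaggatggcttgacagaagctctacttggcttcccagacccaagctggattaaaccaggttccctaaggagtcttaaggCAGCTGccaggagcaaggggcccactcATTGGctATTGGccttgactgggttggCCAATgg
Pck1: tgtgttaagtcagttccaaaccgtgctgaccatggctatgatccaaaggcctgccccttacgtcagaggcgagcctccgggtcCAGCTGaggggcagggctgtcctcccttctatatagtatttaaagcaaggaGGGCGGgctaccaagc
The albumin window held CCAAT on both strands, a GTTAAT match between them and 1 E-box, the adiponectin window held 3 CCAAT matches and 1 E-box, and the Pck1 window held 1 E-box and 1 GC box. A match is a run of letters and not a site shown to be bound.

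Called genes at 50 CPM or more in the higher tissue and with no overlap numbered 1366 higher in liver and 664 higher in WAT. Promoter windows of 300 bases were found for 1068 and 514 of them. The HNF1 core stood in 7.9% of the liver-higher windows, 3.46% of the WAT-higher windows, 4.86% of the windows of all genes tested and 7.1% of all 32851 windows. The nuclear receptor core AGGTCA stood in 17.7%, 13.0%, 13.1% and 16.3% of those sets. The steroid receptor core AGAACA stood in 16.2%, 12.2%, 13.1% and 19.0%, the E-box in 68.1%, 66.0%, 64.9% and 72.3%, the forkhead core TGTTTAC in 3.55%, 2.31%, 2.95% and 3.65%, and the TATA box TATAAA in 10.5%, 8.93%, 8.09% and 13.6%. CCAAT stood in 40.2%, 34.6%, 37.0% and 37.4%, and GGGCGG in 54.9%, 62.0%, 58.2% and 35.7%. These shares are descriptions, with no test, and motifs can overlap.

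The transcription factors that define the hepatocyte were low in WAT, with 7 of 23 at 1 CPM or more there. Of the 23 liver-enriched factors 20 were called higher in liver and none in WAT, at a median of 8.78, or 7.39 with floor genes at their bound. The pioneer factor Foxa1 was at 26, 25.3, 23.7, 18.7 and 24.1 CPM in liver and at 0 in every depot, at least 404-fold higher in liver, and Onecut1 at least 168-fold, with 3.77, 34.3, 5.97, 3.47 and 1.51 CPM in the livers, most of it in wildtype liver 2. The bile acid sensor target Nr0b2 and the xenobiotic receptor Nr1i3 were at least 557- and 1071-fold higher in liver. Cebpa, which both hepatocytes and adipocytes need, did not separate the tissues, at 238, 433, 262, 243 and 378 CPM in liver and 279.9, 285, 344 and 233 CPM in WAT, with a difference of 0.13 ± 0.21. No liver factor was called higher in WAT, against 1 of 23 without wildtype liver 2.

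Among 21 tested factors of fat cells and their precursors 11 were called higher in WAT and 3 in liver, at a median of -1.65. The positional factors Hoxc8 and Hoxc9 and the precursor factor Ebf2 were at 0 in all 5 livers, and at 35.5 ± 2.82, 3.19 ± 0.618 and 16.2 ± 0.87 CPM in WAT, at least 181-, 16.3- and 82.5-fold higher there. Ebf1, which keeps adipocytes in their state, was at least 319.6-fold higher in WAT. The members called higher in liver act in many tissues. They were Klf15, a glucocorticoid-induced factor of amino acid breakdown (2.37 ± 0.17), Cebpb (2.12 ± 0.17) and the growth hormone effector Stat5b (1.95 ± 0.15). Its close relative Stat5a was at 21.5 ± 5.81 and 19.3 ± 1.55 CPM and differed by 0.13 ± 0.18 (adjusted p = 0.533), and Tbx15 was too low to test.

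**Figure D2:**
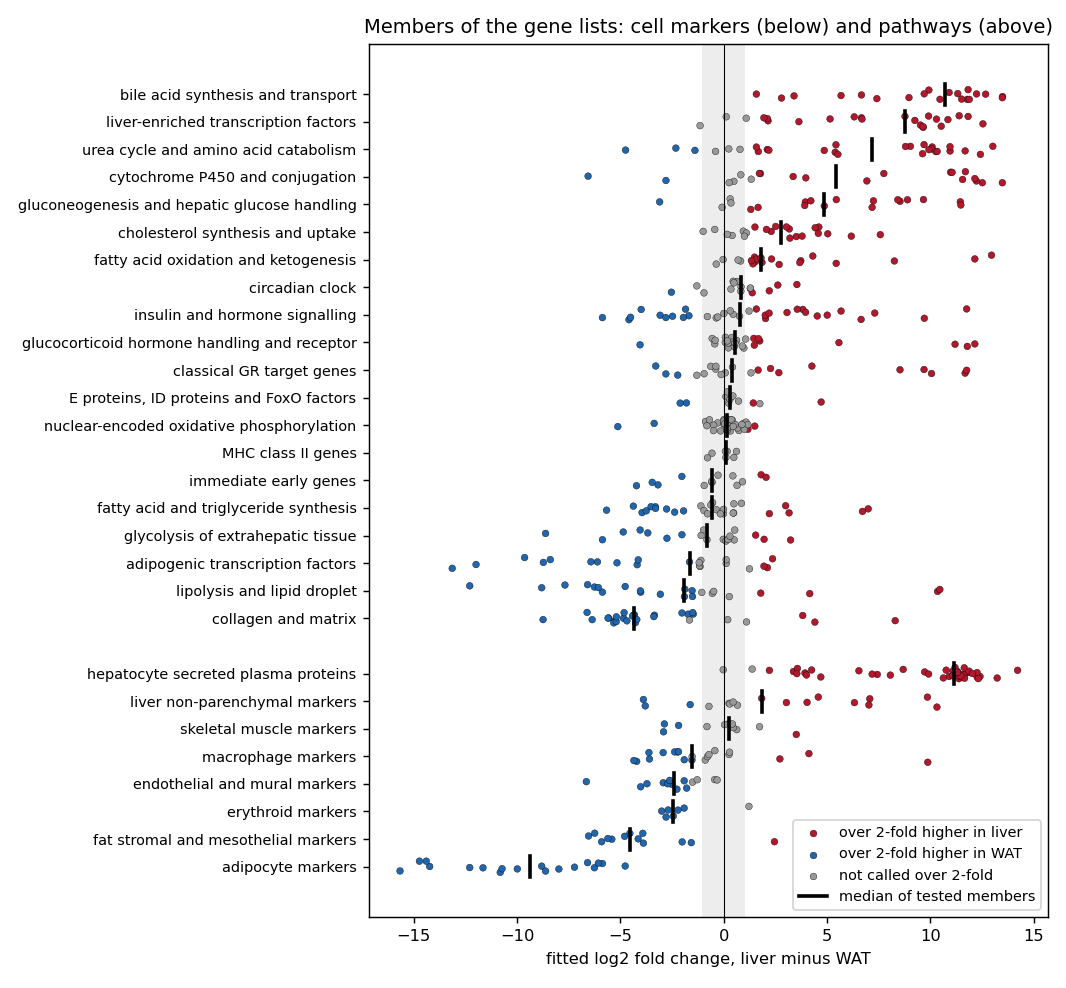
Fitted log2 fold change, liver minus WAT (x axis), of each tested member of the gene lists (rows), coloured by the over-2-fold call, with a black bar at the median of each list and grey shading from -1 to 1. Bile acid genes have a median of 10.7 and adipocyte markers one of -9.39, while oxidative phosphorylation, GR targets and E proteins have medians within 0.5 of 0.

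Genes that handle glucocorticoids differed between the tissues one by one. Of 25 genes of hormone handling and receptor function 8 were called higher in liver and 1 in WAT, against 19.4% and 25.9% of all genes tested, at a median of 0.55. On library totals the median turned negative and the calls were 4 and 4. GR itself (Nr3c1) was at 102, 115, 111.3, 105 and 99.7 CPM in liver and at 47, 47.7, 57.9 and 50.3 CPM in WAT with no overlap, a difference of 1.07 ± 0.09 that passed the test of any difference and not that of over 2-fold (adjusted p = 0.172). The mineralocorticoid receptor Nr3c2, which also binds glucocorticoids, was called higher in liver (1.49 ± 0.17) at 8.48 ± 1.6 and 3.01 ± 0.335 CPM. The enzyme that regenerates active glucocorticoid inside cells, Hsd11b1, was at 722, 511, 591, 687 and 922 CPM in liver and 453, 629, 395 and 588 CPM in WAT. These levels overlapped, and the difference of 0.40 ± 0.21 did not pass (adjusted p = 0.107), although it did without wildtype liver 2 (0.53, adjusted p = 0.0445) or without wildtype WAT 2 (0.53, adjusted p = 0.0486). H6pd, which supplies its cofactor, was at 666 ± 95.3 and 505 ± 41.7 CPM and passed the test of any difference at 0.40 ± 0.14, with the opposite sign on library totals. That call ended without E47KO WAT 2 (0.33, adjusted p = 0.0890) or E47KO WAT 3 (0.41, adjusted p = 0.0534).

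Genes of hormone breakdown and carriage differed more. The clearing enzymes Akr1d1 (11.80 ± 0.52), Srd5a1 (5.58 ± 0.24) and Cyp3a11 (12.16 ± 1.01) were called higher in liver. Corticosteroid-binding globulin, Serpina6, was at 29.3, 7.17, 11.7, 87.7 and 34.3 CPM in the livers, a wide spread, and at least 583-fold higher there. Hsd11b2, which inactivates glucocorticoid, was the gene called higher in WAT, at only 1.21, 0.616, 1.1 and 0.701 CPM and at or below 3 counts in every liver, at least 4.61-fold higher.

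The chaperones that hold GR ready were partly higher in liver. Fkbp4 (1.75 ± 0.16) and Hsp90ab1 (1.46 ± 0.18) were called, Hsp90aa1 passed the test of any difference (0.98 ± 0.24), though not on library totals (0.15, adjusted p = 0.523), and Ptges3 (0.23 ± 0.11) did not pass, although it did without E47KO liver 1 (0.30, adjusted p = 0.0354) or E47KO liver 2 (0.28, adjusted p = 0.0395). Of 11 coregulators 1, the coactivator Ncoa2, was called higher in liver (1.68 ± 0.09). Ep300 (0.90 ± 0.12) passed the test of any difference toward liver, though not on library totals, as did Ncor1 (0.63 ± 0.09) and Med1 (0.55 ± 0.16), whose values turn toward WAT on library totals. Ncoa1 (-0.55 ± 0.13), Med24 (-0.43 ± 0.12) and Crebbp (-0.41 ± 0.08) passed toward WAT. Ncoa3 (0.09 ± 0.16), Med16 (0.23 ± 0.11) and Med23 (0.18 ± 0.10) did not pass, of which Med16 (adjusted p = 0.0429) and Med23 (adjusted p = 0.0363) did without wildtype liver 2.

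Known GR target genes split in 3 ways. Of 21 targets 9 were called higher in liver and 3 in WAT, against 19.4% and 25.9% of all genes tested, at a median of 0.43. On library totals the median turned negative and 5 were called higher in WAT. The 6 targets of the hepatocyte program were all called higher in liver. Tat, the tyrosine aminotransferase that served as an early model of steroid induction, was at 3071, 3510.4, 3819, 3452 and 1354 CPM in liver and 0.402, 1.55, 0.814 and 0.946 CPM in WAT. Igfbp1, which binds insulin-like growth factors, differed by 11.76 ± 0.63, and the enzymes of amino acid breakdown Tdo2 and Sds by 10.06 ± 0.43 and 9.70 ± 0.35. The glucose-6-phosphatase G6pc differed by 8.54 ± 0.25. Pck1, which makes glucose in liver and glycerol for triglyceride in fat, was abundant in both, at 6404, 7769, 5833, 5433 and 6808 CPM in liver and 1659, 1851, 2211 and 2384 CPM in WAT, a difference of 1.67 ± 0.23, whose over-2-fold call ended on library totals (0.85).

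Among the 15 targets shared by many tissues the direction varied by gene. The feedback inhibitor of growth factor receptors Errfi1 was at 2272, 2857, 2396, 1865 and 801 CPM in liver and 96, 144, 46.1 and 144 CPM in WAT (4.27 ± 0.45). Klf9, a repressor in the GR circuit, was at 244, 244, 226, 223 and 144 CPM in liver and 31.1, 37.1, 27.7 and 40.4 CPM in WAT (2.67 ± 0.18), and the siderophore binder Lcn2 was called higher in liver at 2.27 ± 0.62 with a wide spread, 125, 468, 84.4, 80.9 and 447 CPM in the livers. Lcn2 lost the over-2-fold call without any one of 5 libraries, namely wildtype liver 2 (1.78), E47KO liver 3 (1.66), wildtype WAT 1 (2.04), wildtype WAT 2 (2.41) and E47KO WAT 2 (2.18), with adjusted p for over 2-fold of 0.0564 to 0.109, and on library totals (1.43).

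Called higher in WAT were Tsc22d3, or GILZ, an anti-inflammatory mediator, Pdk4, which diverts pyruvate from oxidation, and Angptl4, which inhibits Lpl. Tsc22d3 was at 96.2, 77.8, 83.5, 112 and 44.7 CPM in liver and 441, 419.8, 293 and 417 CPM in WAT (-2.22 ± 0.24). Pdk4 was at 57, 72.2, 94.6, 52.2 and 79.5 and 651, 954, 512 and 684 CPM (-3.28 ± 0.24). Angptl4 was at 164, 236, 181, 153 and 79.2 and 1014, 1254, 1165 and 1091 CPM (-2.79 ± 0.25). None of these 3 overlapped between the tissues, which held for 73.0% of all genes tested. The clock gene Per1 (-1.30 ± 0.30) and the phosphatase Dusp1 (-0.62 ± 0.07) passed the test of any difference toward WAT, and the zinc finger factor Zbtb16 (1.33 ± 0.48) toward liver, a call that ended without any one of 6 libraries (adjusted p = 0.0527 to 0.0688) and on library totals.

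Fkbp5, the co-chaperone that limits GR and is often read as a gauge of its activity, did not separate the tissues. It was at 516, 759.5, 522, 452 and 99.3 CPM in the livers and 493, 574, 249.9 and 498 CPM in the depots, with a difference of 0.08 ± 0.42 (adjusted p = 0.862). The metallothioneins Mt1 (-0.12 ± 0.24) and Mt2 (-0.37 ± 0.29), the kinase Sgk1 (-0.38 ± 0.19), the cell cycle inhibitor Cdkn1a (0.43 ± 0.55) and the mTOR inhibitor Ddit4 (-0.94 ± 0.51) did not pass either. On library totals Mt1 (-0.93, adjusted p = 0.00515), Mt2 (-1.19, adjusted p = 0.00339), Sgk1 (-1.19, adjusted p = 0.000252) and Ddit4 (-1.74, adjusted p = 0.00908) passed toward WAT. Without E47KO liver 2, Mt2 passed at -0.62 (adjusted p = 0.0322).

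Single libraries of each tissue stood apart in GR targets, low or high, which was seen after the values were known. E47KO liver 3 was the lowest of the 5 livers in 16 of 21 targets, whereas it was the lowest in 22.5% of all genes tested. It held 99.3 CPM of Fkbp5 against 452 to 760 CPM in the other livers, 17.4 CPM of Cdkn1a against 164 to 251, 15.5 CPM of Zbtb16 against 100 to 146, and 5.97 CPM of Ddit4 against 48.0 to 144. E47KO WAT 2 was the lowest of the 4 depots in 15 of 21 targets, against 28.3% of all genes tested, with 250 CPM of Fkbp5 against 493 to 574 CPM in the others. E47KO liver 1 was the lowest in 0 of 21, E47KO liver 2 in 4 and E47KO WAT 3 in 0, and the labels name no difference in their handling. In the other direction, wildtype liver 2 was the highest of the livers in 12 of 21 targets, against 22.6% of all genes tested, and wildtype WAT 2 the highest of the depots in 11, against 21.2%. Without E47KO liver 3 the tissue difference of Fkbp5 was 0.33 ± 0.22 (adjusted p = 0.205), Zbtb16 passed the over-2-fold test at 1.60 ± 0.18, and Cdkn1a (0.70 ± 0.18, adjusted p = 0.00727) and Ddit4 (-0.67 ± 0.24, adjusted p = 0.0325) passed the test of any difference. Without E47KO WAT 2, Sgk1 passed it at -0.59 (adjusted p = 0.00378).

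**Figure D3:**
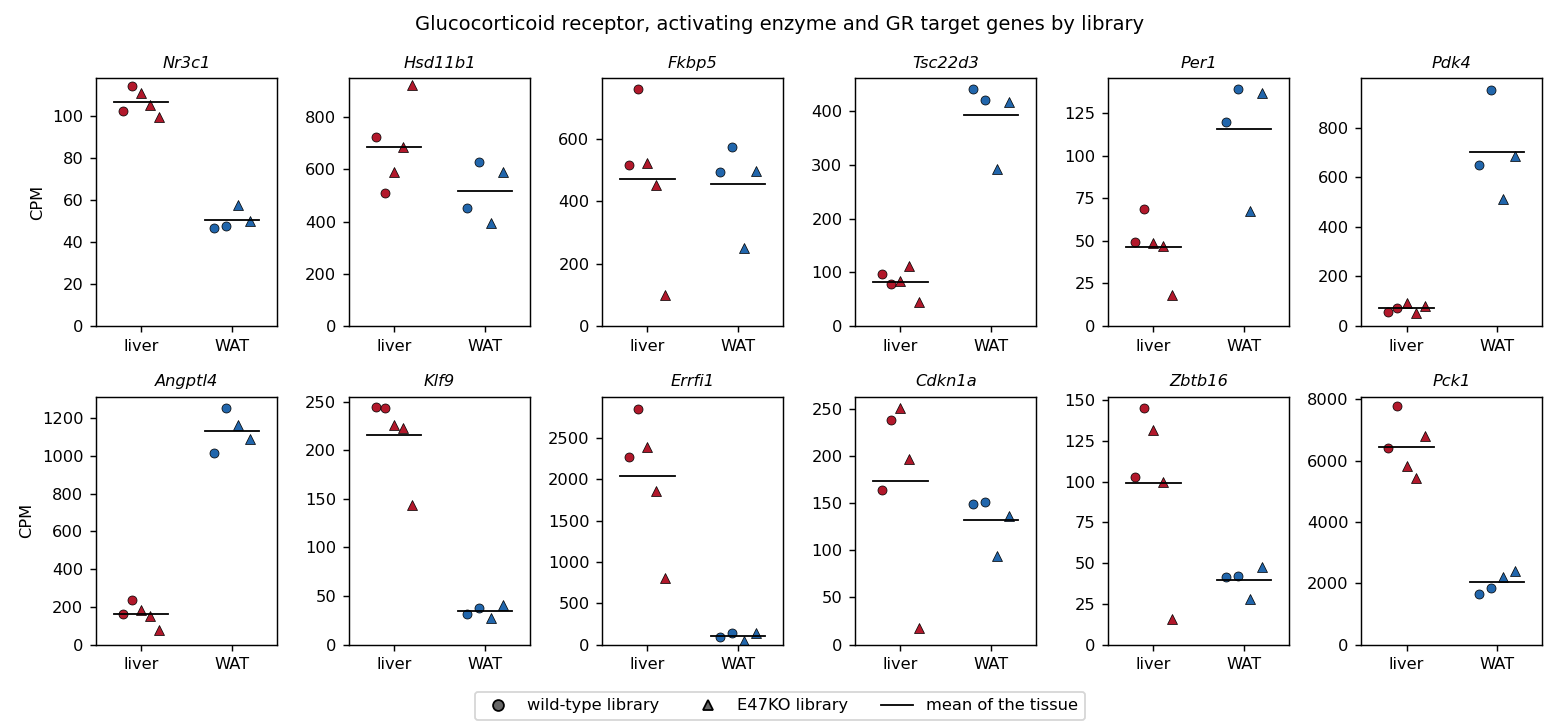
Levels in CPM (y axes, from 0) of GR, Hsd11b1 and 10 GR target genes in each liver and WAT library, with circles for wildtype, triangles for E47KO and a line at the mean of the tissue. Pdk4 and Angptl4 are higher in all depots and Errfi1 and Klf9 in all livers, and the lowest triangle in liver is E47KO liver 3 for Nr3c1, Fkbp5, Tsc22d3, Per1, Angptl4, Klf9, Errfi1, Cdkn1a and Zbtb16.

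E proteins such as Tcf3 bind the E-box as dimers, ID proteins block them, and FoxO factors act with GR on glucose genes. Of the 11 genes of this list 2 were called higher in liver and 2 in WAT, against 19.4% and 25.9% of all genes tested. On library totals 1 was called higher in liver. Id2 was at 147, 123, 153, 173 and 343 CPM in liver and 4.34, 7.58, 8.03 and 6.89 CPM in WAT, a difference of 4.72 ± 0.31, with the highest level in E47KO liver 3. Tcf3 differed by 0.11 ± 0.11 (adjusted p = 0.365) and Tcf12 by 0.24 ± 0.11, while the third E protein gene, Tcf4, was called higher in WAT at 50.4, 51.3, 51.2 and 53.4 CPM against 16.4, 13.1, 16.2, 15.5 and 13 CPM (-1.80 ± 0.09). Foxo3 was called higher in liver (1.44 ± 0.12), and Foxo6 in WAT, at 0.141, 0.467, 0.549 and 0.385 CPM and at or below 3 counts in every liver, but the Foxo6 call ended without any one of 7 libraries. Id1 (0.72 ± 0.17), Id4 (1.75 ± 0.49) and Foxo4 (0.45 ± 0.09) passed the test of any difference toward liver, with Id1 and Foxo4 reversed on library totals and Id4 no longer passing there (0.97, adjusted p = 0.0962). Id3 (0.18 ± 0.15) and Foxo1 (0.31 ± 0.30) did not pass. Without E47KO liver 3, Tcf12 passed at 0.31 (adjusted p = 0.0185) and Id4 passed the over-2-fold test at 1.99 (adjusted p = 0.0144), as it did without wildtype liver 2 (2.01, adjusted p = 0.0196). The same library had 42.2 CPM of Foxo1 against 81.3 to 167 CPM in the other livers, and without it Foxo1 passed at 0.49 ± 0.20 (adjusted p = 0.0486).

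Genes of glucose production and storage were mostly higher in liver. Of 19 genes of gluconeogenesis and hepatic glucose handling 15 were called higher in liver and 1 in WAT, at a median of 4.87. The 10 genes of glucose sensing and storage were all called higher in liver, at a median of 7.22, and of the 9 genes of gluconeogenesis itself 5 were, at a median of 1.67. Among them were fructose bisphosphatase (Fbp1, 11.46 ± 0.35), the glucose carrier Slc2a2 (9.67 ± 0.30) and Gckr (8.90 ± 0.25). The exception was Pck2, the mitochondrial relative of Pck1, called higher in WAT at 40.5 ± 5.74 against 4.68 ± 1.03 CPM (-3.09 ± 0.13). Pyruvate carboxylase Pcx (0.32 ± 0.16) and the pyruvate carrier subunit Mpc1 (-0.07 ± 0.10) did not pass. Among 19 genes of glycolysis outside the liver 7 were called higher in WAT and 3 in liver. Slc2a4, the insulin-dependent glucose carrier (-8.62 ± 0.32), the hexokinase Hk2 (-5.86 ± 0.27), the lactate dehydrogenase subunit Ldhb (-4.86 ± 0.19) and the pyruvate kinase Pkm (-4.04 ± 0.18) led toward WAT. Aldoc (3.24 ± 0.29), Pgk1 (1.96 ± 0.10) and Pgam1 (1.55 ± 0.08) were called higher in liver. Slc2a1, the basal glucose carrier, was at 17.6 ± 3.83 and 17.9 ± 2.97 CPM (-0.02 ± 0.18), and Tpi1 differed by 0.11 ± 0.13.

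Related genes were compared in 18 pairs, each picked for a known liver copy and a known copy of fat or other tissues. Since that choice favours a split between the tissues, the counts describe these pairs and not metabolism at large. In 11 of the 18 pairs the copy known from liver was called higher in liver and the other copy higher in WAT. The copy with the higher level per kb of exon differed between the tissues in 12 pairs. In the CIDE pair this holds for the means, but Cideb led Cidec in 3 of 5 livers. Of the 11 pairs 9 are described here. Of the glucose carriers, Slc2a2 led in liver (56.8 against 0.0689 CPM per kb in WAT) and Slc2a4 in WAT (0.0821 in liver against 33.4). Likewise the pyruvate kinases were Pklr (24.5 and 0.0652) and Pkm (4.15 and 68.3), and the glycogen synthases Gys2 (79.7 and 1.81) and Gys1 (0.681 and 19.3). 

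The pattern held for lipid carriers, lipases and droplet proteins. Fabp1 was at 3138 CPM per kb in liver and 1.06 in WAT, and Fabp4 at 2.59 and 4678. The secreted lipases Lipc (58.8 and 0.0424) and Lpl (1.59 and 711) and the droplet proteins Cideb (35.9 and 0.0224) and Cidec (32.3 and 2443) did the same. Cidec varied among livers, at 51.5, 114, 108, 15.9 and 10.4 CPM. The glycerol channels Aqp9 (86.2 and 0.138) and Aqp7 (0.0129 and 25.1), the lipid sensors Ppara (22.8 and 0.221) and Pparg (2.68 and 47.5), and the FGF receptors Fgfr4 (12.2 and 0.234) and Fgfr1 (0.803 and 12.7) did so too.

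In the other 7 pairs 1 copy or neither followed the tissue, as 6 of them show. Scd1 led Scd2 in both tissues and both were called higher in WAT, Scd2 at 5.19 ± 2.13 and 60.7 ± 16.8 CPM. Bcat2 led Bcat1 in both, with both called higher in WAT. Plin2 was at 481 ± 101 and 399.5 ± 67.3 CPM with no call (0.28 ± 0.18), although it passed the test of any difference without E47KO WAT 2 (0.45, adjusted p = 0.0343), while Plin1 was called higher in WAT (-12.29 ± 0.39). Pygl was the main glycogen phosphorylase in both tissues (1.32 ± 0.18), called higher in liver except without any one of 4 libraries (1.19 to 1.27) or on library totals (0.50), and Pygm passed only the test of any difference (-0.62 ± 0.21). Cpt1a was called higher in liver (3.74 ± 0.16) and was the main carnitine palmitoyltransferase of WAT as well, since Cpt1b was at 0.344 ± 0.184 and 0.0766 ± 0.0249 CPM and too low to test. Fbp2 was at 0.189, 0.305, 0.492, 0.0579 and 0.206 CPM in liver and 0.322, 0.446, 0.379 and 1.58 CPM in WAT (-1.47 ± 0.61), and its pass in the test of any difference ended without any one of 7 libraries (adjusted p up to 0.289, without E47KO WAT 3).

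**Figure D4:**
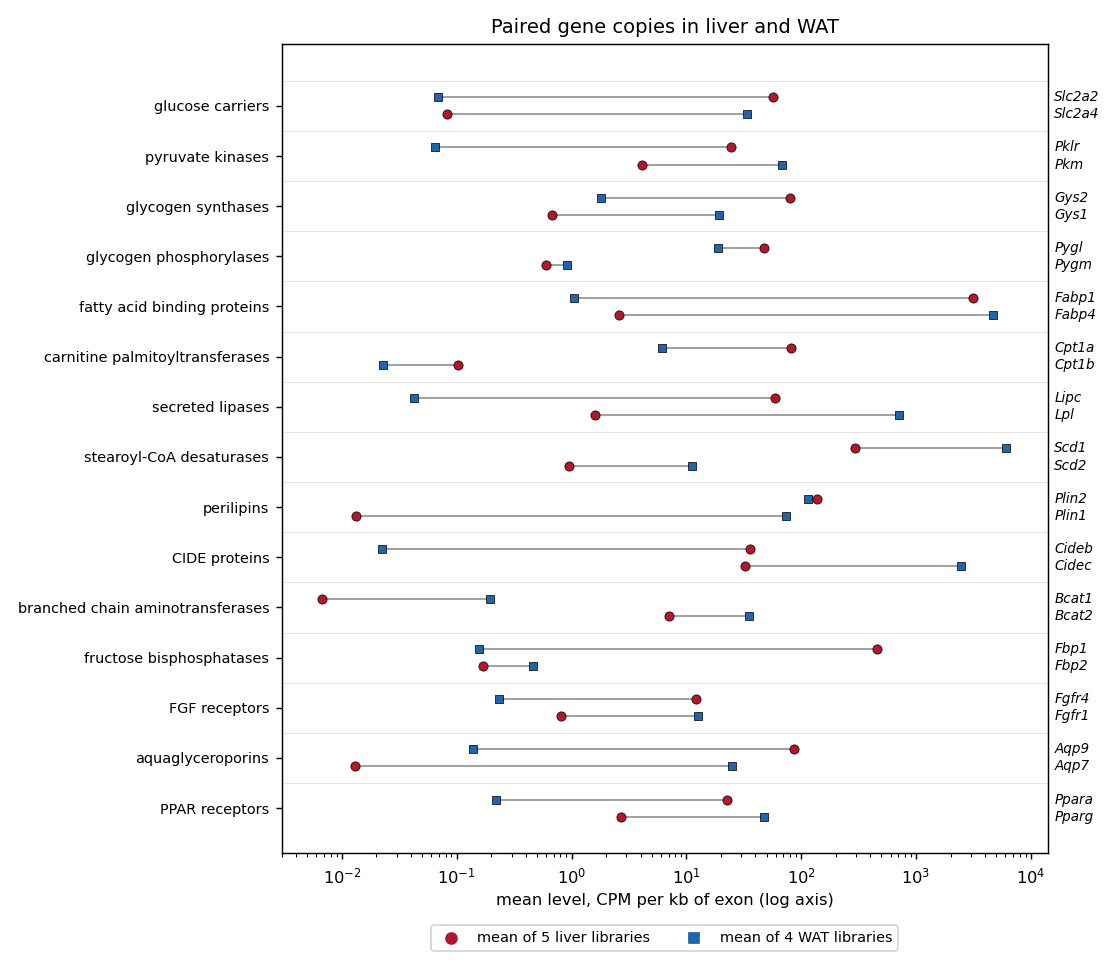
Mean level in CPM per kb of exon (x axis, log scale) of the 2 copies in each of 15 gene pairs (rows), with a circle for the 5 livers and a square for the 4 depots. The copies swap ends in pairs such as glucose carriers and fatty acid binding proteins, with Fabp1 at 3138 in liver and Fabp4 at 4678 in WAT, and do not in stearoyl-CoA desaturases.

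Lipid synthesis genes went both ways. Of 28 genes of fatty acid and triglyceride synthesis 10 were called higher in WAT and 5 in liver, against 25.9% and 19.4% of all genes tested. Of the 12 genes of fatty acid synthesis 5 were called higher in WAT and 3 in liver, and of the 11 of triglyceride synthesis 4 in WAT and 2 in liver. Fatty acid synthase (Fasn) was at 122, 110.4, 70.1, 86.4 and 80.7 CPM in liver and 822, 1449.9, 1017 and 1716 CPM in WAT (-3.74 ± 0.26), Scd1 differed by -4.37 ± 0.43, and the lipogenic nuclear protein Thrsp by -3.95 ± 0.45. Mogat1, a monoacylglycerol acyltransferase, was called higher in WAT as well (-5.67 ± 0.30). The polyunsaturated fatty acid desaturase Fads2 (337 ± 60.2 against 2.63 ± 1.18 CPM), the elongase Elovl5 (3.17 ± 0.23), the phosphatidate phosphatase Lpin2 (6.72 ± 0.23) and the first enzyme of glycerolipid synthesis, Gpam (3.00 ± 0.15), were called higher in liver. Gpat4 was at 176 ± 33.3 and 175 ± 24.2 CPM (-0.00 ± 0.15) and the sterol sensor Nr1h2 at 48.7 ± 2.33 and 48.9 ± 0.665 CPM (-0.01 ± 0.07).

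Lipid release and droplet genes belonged mostly to WAT. Of 23 tested genes 15 were called higher in WAT and 4 in liver. Plin1 (-12.29 ± 0.39), Lpl (-8.80 ± 0.34), the lipase-like Pnpla3 (-7.68 ± 0.34) and Plin4 (-6.58 ± 0.43) led toward WAT. Pnpla3, best known for its liver role, was at 0.817, 2.21, 0.492, 1.51 and 0.618 CPM in the livers and 217, 254, 177 and 274 CPM in the depots. The members higher in liver were Cideb, at least 915-fold, Lipc (10.36 ± 0.30), Plin5 (4.17 ± 0.29) and Plin3 (1.80 ± 0.12). The adenosine receptor Adora1 passed only the test of any difference (-0.48 ± 0.09).

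Genes of fatty acid breakdown were mostly higher in liver, but Acsl1 was not among them. Of 20 tested genes 16 were called higher in liver and none in WAT, at a median of 1.83. The microsomal hydroxylases Cyp4a14 (12.97 ± 1.00) and Cyp4a10 (12.16 ± 0.85) and the ketone body enzyme Bdh1 (8.27 ± 0.18) led. Acsl1, which activates fatty acids for use or storage, was at 1569, 1126, 1983, 2006 and 1515 CPM in liver and 1467, 1722, 1429 and 1848 CPM in WAT (-0.02 ± 0.19), the gene with the highest CPM among those whose 95% interval lay within 0.5 of 0. Oxct1, which uses ketone bodies, did not pass (-0.36 ± 0.27), but did without wildtype liver 2 (-0.71, adjusted p = 0.0053). On library totals 9 genes of this list were called higher in liver and none in WAT.

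Most cholesterol, bile acid, urea and drug-metabolizing genes were called higher in liver. Of 22 cholesterol genes 15 were called higher in liver and none in WAT, among them Hsd17b7 (5.04 ± 0.26) and Idi1 (4.61 ± 0.46), while Nsdhl (0.18 ± 0.29) and Fdft1 (0.41 ± 0.27) did not pass. Fdft1 did without E47KO liver 1 (0.62, adjusted p = 0.0200). All 20 bile acid genes were called higher in liver, at a median of 10.7. Cyp7a1, the rate-limiting enzyme of bile acid synthesis, was at 138, 148, 227, 182 and 107 CPM in liver and at least 2745-fold higher there, and the carriers Slco1a1 (13.49 ± 0.39), Slco1b2 (12.68 ± 0.58) and Abcc2 (12.24 ± 0.29) followed. The smallest differences of that list were in the FGF co-receptor Klb (1.59 ± 0.20) and the enzyme Hsd3b7 (2.80 ± 0.16).

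Of 28 urea cycle and amino acid genes 22 were called higher in liver and 3 in WAT. Cps1 (13.03 ± 0.63) and Otc (12.43 ± 0.38), the first enzymes of the urea cycle, led, with Tat, and Nags, which makes the activator of Cps1, was at least 1139-fold higher in liver. The genes called higher in WAT act on branched chain amino acids. They were Bcat2 (-2.31 ± 0.17), Bckdhb (-1.39 ± 0.12) and Bcat1, which was at only 1.82 ± 0.642 CPM in WAT. Of the 6 branched chain genes in the list 1 was called higher in liver. In the test of any difference 2 of the 6 passed toward liver and 4 toward WAT. Glutamine synthetase (Glul) was at 1579.7 ± 173 and 1338 ± 231 CPM (0.25 ± 0.17) and did not pass, and Ivd passed only the test of any difference (-0.39 ± 0.15), a call that ended without any one of 7 libraries (adjusted p = 0.0511 to 0.117).

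Of 20 cytochrome P450 and conjugation genes 14 were called higher in liver and 2 in WAT. Cyp1a2 was at least 7727-fold higher in liver, and Cyp2c29 (12.52 ± 0.69), Cyp2d9 (12.24 ± 0.74) and Cyp3a11 followed, each from a family of near-identical copies. Cyp1b1 (-6.56 ± 0.26) and Cyp4b1 (-2.79 ± 0.30) were called higher in WAT. Cyp2e1, the ethanol-inducible P450 and among the 10 liver genes with the highest CPM, was also high in fat. It was at 11479, 11314, 14703, 14433 and 12389 CPM in liver and 5058, 6816, 3383 and 5278 CPM in WAT, a difference of 1.34 ± 0.29 that passed the test of any difference and not that of over 2-fold (adjusted p = 0.0952). Without wildtype WAT 2 it passed the latter (1.49, adjusted p = 0.0287), and on library totals the difference was 0.53 and passed neither. Gstz1 (0.27 ± 0.12) passed no test with all libraries, and Sult1a1 (0.50 ± 0.16) passed that of any difference toward liver, with the opposite sign on library totals. The Gstz1 difference passed without wildtype WAT 2 (0.33, adjusted p = 0.0384), and that of Sult1a1 ended without wildtype liver 1 (adjusted p = 0.0548) or E47KO WAT 2 (adjusted p = 0.0660).

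Hormone signalling genes went both ways. Of 33 genes 15 were called higher in liver and 10 in WAT. Igfbp1, Fetub (9.71 ± 0.22) and the glucagon receptor Gcgr (6.65 ± 0.19) were among those higher in liver. Igfbp6 (-5.86 ± 0.29), the insulin receptor adaptor Grb10 (-4.58 ± 0.21), Igfbp3 (-4.50 ± 0.36) and Fgfr1 (-3.99 ± 0.20) led toward WAT. The insulin-like growth factor binding proteins thus differed in direction among themselves. The kinase Akt1 was at 64.1 ± 4.29 and 63.3 ± 4.11 CPM (0.01 ± 0.08) and the growth factor Nrg4 at 42.2 ± 19.8 and 49.9 ± 4.06 CPM (-0.28 ± 0.30), with neither passing.

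Few respiratory chain genes were called over 2-fold on TMM scaling. Of 33 tested nuclear genes 2 were called higher in liver, Cox5a (1.51 ± 0.16) and Ndufs1 (1.18 ± 0.07), and 2 in WAT, the muscle and brown fat subunit Cox8b (-5.12 ± 0.57) and the uncoupling protein Ucp2 (-3.36 ± 0.25). The median was 0.18. It turned negative on library totals, with 0 called higher in liver and 7 in WAT. Without E47KO liver 1, 4 were called higher in liver. In the test of any difference 16 passed toward liver and 8 toward WAT. Cox7a2 (165 ± 22.2 and 165 ± 14.2 CPM) and Cox5b (145 ± 16.9 and 144 ± 13.1 CPM) were closest to 0. Ucp1, the marker of brown fat, was at 0 in every liver, at 0.0724 ± 0.0276 CPM in WAT and not tested. The mitochondrially encoded genes took 4.74% to 5.72% of liver counts and 6.31% to 9.42% of WAT counts.

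Genes at like levels were also counted directly. For 1763 genes, 11% of those tested, the 95% interval of the difference lay within 0.5 of 0, and 447 of them were at 50 CPM or more in both tissues. After Acsl1 those with the highest CPM were Atp5b of the ATP synthase, Itm2b, the lysosomal protein Psap, the phospholipid enzyme Chpt1, the RNA helicase Ddx5, the ribosomal Rpl4, Aplp2, the fatty acid isomerase Ech1 and Atp5g3. Atp5b stood at 1458 ± 83.4 CPM in liver and 1399.9 ± 85.1 CPM in WAT. These are equal shares under TMM and not equal amounts per cell. On library totals every gene named in this paragraph passed the test of any difference toward WAT, at -0.71 (Ech1) to -0.95 (Psap).

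Matrix and stromal genes were WAT genes in the main. Of 29 matrix genes 23 were called higher in WAT and 3 in liver, at a median of -4.31. The crosslinking enzyme Lox (-8.74 ± 0.27), Timp1 (-6.61 ± 0.63), Sparc (-6.36 ± 0.27) and Thbs1 (-5.59 ± 0.35) led, and Sparc reached 2979.9 ± 294 CPM in WAT. Vitronectin (Vtn, 8.31 ± 0.28) and fibronectin (Fn1, 4.42 ± 0.48), both also plasma proteins, and Col18a1 (3.83 ± 0.17) were called higher in liver. Lum did not pass (0.20 ± 0.34), but did toward liver without E47KO WAT 2 (0.68, adjusted p = 0.0348), and Mmp14 passed only the test of any difference (1.11 ± 0.13), though not on library totals. Of 13 fat stromal and mesothelial markers, with a sum of 116 to 176 CPM in liver and 512 to 944 CPM in WAT, 12 were called higher in WAT, led by Pi16 (-6.54 ± 0.35), Dpt (-6.24 ± 0.24) and the mesothelial Upk1b (-5.90 ± 0.33) and Upk3b (-5.60 ± 0.34), and Dpp4, which hepatocytes also express, was called higher in liver (2.46 ± 0.21). The smallest differences were in the fibroblast receptors Pdgfra (-1.56 ± 0.17) and Pdgfrb (8.63 ± 1.27 against 34.3 ± 3.74 CPM).

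The other cell types of each tissue left their own marks. Of 17 markers of liver non-parenchymal cells, with a sum of 378 to 738 CPM in liver and 347 to 498 CPM in WAT, 9 were called higher in liver, led by Colec10 of stellate cells, at least 411-fold, Clec4g of sinusoidal endothelium (9.86 ± 0.61), and Lrat (7.07 ± 0.52) and Reln (7.03 ± 0.35) of stellate cells. Krt19 (-3.88 ± 0.55), Krt7 (-3.79 ± 0.33) and Stab1 (-1.62 ± 0.28) were called higher in WAT. Of these, Krt19 was also counted among the stromal and mesothelial markers above. Gpr182 (0.26 ± 0.33) and Ecm1 (0.30 ± 0.16) did not pass. Without E47KO WAT 2, Ecm1 did, at 0.54 (adjusted p = 0.00196). Of 14 endothelial and mural markers, with a sum of 123 to 276 CPM in liver and 783 to 992 CPM in WAT, 10 were called higher in WAT and none in liver, led by Cspg4 (-6.64 ± 0.43), Cldn5 (-4.01 ± 0.35), Acta2 (-3.71 ± 0.25) and Emcn (-2.92 ± 0.39), with Rgs5 (-0.31 ± 0.24) and Tek (-0.43 ± 0.41) not passing except Rgs5 without E47KO WAT 2 (-0.50, adjusted p = 0.05).

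Macrophage markers were called higher in WAT more often than in liver. Of 20 markers 10 were called higher in WAT and 3 in liver, and their sum was 294 to 481 CPM in liver and 998 to 1952 CPM in WAT. Of 5 genes of Kupffer cells, the macrophages of the liver, 3 were called higher in liver, namely Clec4f at 45.9, 54.5, 49.7, 60.4 and 35.8 CPM in liver and 0.0402, 0.0212, 0.0379 and 0.0876 CPM in WAT, Cd5l (4.13 ± 0.51) and Marco (2.72 ± 0.49). The lipid-associated macrophage genes Gpnmb (-4.34 ± 0.49) and Trem2 (-3.61 ± 0.38), the lysozyme gene Lyz2 (-4.21 ± 0.26) and Itgam (-3.59 ± 0.28) led toward WAT. Vsig4 (0.26 ± 0.23) and Timd4 (0.29 ± 0.30), the other Kupffer cell genes, did not pass. E47KO WAT 2 held 888 CPM of Lyz2 against 385 to 424 CPM in the other depots, and without it Vsig4 (0.55, adjusted p = 0.0287) and Timd4 (0.68, adjusted p = 0.0339) passed toward liver.

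Lymphocyte transcripts were scarce in both tissues. By the authors' account, E47KO mice have no mature B cells, and their T cell development is partly blocked at an early stage. Such mice gave 3 of the livers and 2 of the depots, and the sums below are not split by genotype. Summed over 8 B cell markers, the libraries held 0.153 to 1.57 CPM in liver and 0.276 to 0.568 CPM in WAT, and 1 marker, Blk, was high enough to test. It was called higher in liver, at 1.26, 0.0763, 0.738, 0.521 and 0.137 CPM. Of 11 T and NK cell markers 3 were tested, and the sum was 1.45 to 2.55 CPM in liver and 1.57 to 2.78 CPM in WAT. Cd4 was called higher in liver (3.12 ± 0.47), and Lck (0.35 ± 0.26) and Cd3e (-1.35 ± 0.60) did not pass. Cd3e passed toward WAT without E47KO liver 2 (adjusted p = 0.0306) or E47KO WAT 2 (adjusted p = 0.0326), and without wildtype liver 1 a marker of this list was called higher in WAT. None of 7 MHC class II genes was called, or 2 toward WAT on library totals, although their summed level ranged from 8.77 to 97.6 CPM among livers and from 10.6 to 69.8 CPM among depots. Cd74 was at 10.1, 3.2, 20.4, 22.6 and 40.5 CPM in liver and 6.46, 3.99, 28.6 and 31.2 CPM in WAT, and H2-Eb1 at 5.92 ± 5.39 and 5.14 ± 4.26 CPM. Every E47KO library had more Cd74 than every wildtype library, in both tissues. A difference between genotypes was not tested for Cd74.

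Markers of blood and neighbouring tissues were also compared. Of 7 erythroid markers, which summed to 207 to 441 CPM in liver and 647 to 1354 CPM in WAT, 6 were called higher in WAT, with 182, 84.3, 81.3, 179.7 and 85.4 CPM of Hbb-bs in the livers and 559, 493, 565 and 266 CPM in the depots, whereas Alas2 passed the test of any difference toward liver (1.23 ± 0.23), though not on library totals. The globins Hba-a1 (-2.44 ± 0.32) and Hba-a2 (-2.68 ± 0.35), which are near-identical copies, and the anion exchanger Slc4a1 (0.302 ± 0.2 against 2.62 ± 1.43 CPM) differed likewise. The skeletal muscle list summed to 11.1 to 34.8 CPM in liver and 35.1 to 90.1 CPM in WAT. Of its 11 tested markers 3 were called higher in WAT and 1 in liver, against 25.9% and 19.4% of all genes tested. Those in WAT were Actn3 (-2.91 ± 0.38), Acta1 (-2.87 ± 0.42) and Pvalb (-2.18 ± 0.61), and that in liver was Myh2 (3.52 ± 0.62). Tnnt3 (0.05 ± 0.42) and Mylpf (0.26 ± 0.24) did not pass. The Pvalb call ended without any one of 7 libraries (adjusted p for over 2-fold of 0.0601 to 0.0952). Without E47KO liver 1 or 3 the liver count was 2. Myh2 was at 1.82, 0.915, 1.23, 5.67 and 1.24 CPM in the livers, highest in E47KO liver 2. The epididymal depot lies beside the epididymis and testis, but none of 16 markers of these organs was high enough to test with all libraries, or 2 were and were called higher in WAT without E47KO WAT 2, with a summed level of 0.480 to 1.14 CPM in liver and 0.776 to 2.65 CPM in WAT. Of 10 acinar pancreas markers, with a sum of 7.01 to 9.38 CPM in liver and 19.8 to 26.8 CPM in WAT, Cela1 was tested and called higher in WAT (-1.58 ± 0.12) at 23.8 ± 3.16 CPM. Their part in any result above was not tested.

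Circadian and immediate early genes can move with the hour of death, which the labels do not give. Of 15 circadian clock genes 5 were called higher in liver and 1 in WAT. The output factors Hlf (3.55 ± 0.15) and Dbp (2.21 ± 0.45), Ciart (2.62 ± 0.42) and Nr1d2 (1.39 ± 0.11) led toward liver, Per3 was called higher in WAT (-2.53 ± 0.27), and Tef (0.46 ± 0.18) and Npas2 (0.35 ± 0.32) were closest to 0, with only Tef passing the test of any difference. The pass of Tef ended without any one of 6 libraries (adjusted p = 0.0520 to 0.119), and on library totals the circadian counts were 2 in liver and 3 in WAT. Of 13 tested immediate early genes 4 were called higher in WAT and 2 in liver, against 25.9% and 19.4% of all genes tested. Those in WAT were Fosb (-4.22 ± 0.57), Ier3 (-3.45 ± 0.35), Egr2 (-3.18 ± 0.43) and Fos (-2.02 ± 0.47). Those in liver were Jund (2.06 ± 0.16) and Junb (1.82 ± 0.19), or 1 on library totals. Members of the AP-1 family thus differed in direction. The Fos call ended without E47KO liver 2 (-1.92) or E47KO WAT 3 (-1.51). Nr4a1 (-0.27 ± 0.23) and Atf3 (0.45 ± 0.44) did not pass.

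The tissue difference was also asked for each genotype. With wildtype libraries alone 6232 genes were called over 2-fold and with E47KO libraries alone 6205. A test of whether the difference itself changed with genotype, by edgeR's interaction term, called 0 of 16054 genes, with 505 (3.15%) at an unadjusted p below 0.05 and a smallest adjusted p of 0.62. DESeq2 called 5, of which Cd14, Rnf144b, Hal and Dusp6 are named here after their values were seen. They were also among the 5 with the smallest p in edgeR. Cd14, the endotoxin co-receptor, was at 17.9, 10.8, 2.52, 1.56 and 2.61 CPM in the livers and 31, 34.6, 48.2 and 35.4 CPM in the depots, lower in the 3 E47KO livers than in both wildtype livers.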

How the data were processed

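RNA of liver and epididymal WAT was read by unstranded poly(A) sequencing. The deposited files hold whole-number gene counts, not normalized and not pooled, from reads that the authors mapped to mm10 with STAR 2.4.2a and Ensembl annotation. The closing lines of the files carry names used by HTSeq, which the processing notes list beside DESeq2, so the counter is not certain. Because strand was not read, genes that overlap on opposite strands cannot be told apart. Reads mapped to several places, 22.1% to 26.6% of reads, were not counted, which lowers gene families with near-identical copies, such as Mup and Cyp2c. Lines that name no gene were left out of the totals of 17.5 to 43.0 M (mega-counts).

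Libraries were grouped by the tissue and genotype in their labels. Counts were filtered on low values with filterByExpr (16054 genes kept) and fitted in edgeR 4.0.16 (R 4.3.3) with TMM scaling and a quasi-likelihood model of tissue and genotype. Two-sided tests were for any difference and, by glmTreat, for over 2-fold, each with Benjamini-Hochberg adjustment over all genes tested and a threshold of 0.05, and all adjusted p-values of the report are from these tests unless another tool is named. The interaction was fitted with a mean per group. A gene with at most 3 counts in every library of a tissue was taken as at the floor there, and folds against it are bounds from 3 counts per library, which cover counting error only. Fits were tested on simulated data. Nothing in the labels but the animal numbers says that samples are separate cultures or litters, so p-values measure the spread between these samples, and replicates differed by more than sampling noise. Alternatives were other scalings, no filter, other folds, DESeq2 1.42.0, 1 genotype alone, the replicate number as a block and leaving out each library.

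The samples, gene lists and pairs were chosen with earlier results of these data known. Named by rule were all members of the lists for E proteins, glucocorticoid handling and GR targets and of the pairs, and from each other list up to 4 called members per direction and the 2 with the smallest difference. The rule further took the 10 genes with the highest CPM per tissue, the 10 with the largest differences per direction at 50 CPM or more, and the 10 like-level genes with the highest CPM. Apoe in WAT, Car3, Ucp1, the interaction genes and the single libraries were named after values were seen. Some genes that this rule takes, with their pairs, are not reported here.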

Additional observations from a re-analysis of the deposited data

Results flagged for a closer look

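For the 288 genes named in the report, the highest or lowest library of a tissue was compared with the rest of that tissue by Dixon's criterion, in groups of 5 livers and 4 depots with a level of at least 1 CPM. Chance flags about 1 in 20 such groups, and 21 values were flagged. The groups were not counted, so 21 flags among 288 genes in liver and WAT are not shown to exceed chance.

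E47KO liver 3 was flagged for 4 genes. It had the highest Id2 (343 CPM against 123 to 173 in the other livers) and Apob (13018 CPM against 9456 to 10453). It had the lowest Klf9 (144 CPM against 223 to 244) and Vsig4 (9.61 CPM against 16.1 to 17.3), of which Klf9 is among the GR targets described in the report.

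E47KO WAT 2 had the highest Lyz2 (888 CPM against 385 to 424 in the other depots) and the lowest Tsc22d3 (293 CPM against 417 to 441). E47KO WAT 3 had the highest Fbp2, at 1.58 CPM against 0.322 to 0.446. Wildtype WAT 2 was the highest of the depots in 3 liver genes, Apoa1 (9.47 CPM against 3.41 to 3.78), Cyp4a10 (1.49 CPM against 0.161 to 0.385) and Ppara (1.10 CPM against 0.718 to 0.784). It is also the depot with the highest share of hepatocyte transcripts in the report.

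E47KO liver 2 held the highest levels of 3 genes of muscle, Acta1 (12.7 CPM against 2.95 to 5.66 in the other livers), Myh2 (5.67 CPM against 0.915 to 1.82) and Car3 (662 CPM against 2.36 to 157), which fat also expresses. E47KO liver 1 had the highest Cyp4a14 (10745 CPM against 3642 to 5448) and the lowest Glul (1279 CPM against 1615 to 1717).

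Wildtype liver 1 had the highest Idi1 (64.3 CPM against 12.2 to 27.2) and, of the bile duct keratins, the highest Krt19 (3.08 CPM against 0.554 to 0.992) and Krt7 (1.19 CPM against 0.610 to 0.755). Wildtype liver 2 had the highest Onecut1 (34.3 CPM against 1.51 to 5.97), Igfbp3 (25.6 CPM against 7.69 to 12.9) and Pgam1 (81.9 CPM against 72.8 to 75.1). What lay behind these values was not tested.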

How the results depend on the processing

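The choice that moved the results was the scaling. On library totals 3217 genes were higher in liver and 10500 in WAT, 1944 and 6694 of them over 2-fold, and 1175 genes were at like levels. Of 285 named genes tested, 30 changed sign there with a call on one scaling or both. No call with TMM but a call toward WAT on totals was seen for Akt1 (-0.81), Atp5b (-0.77), Cd74 (-0.74), Cebpa (-0.70), Cox5b (-0.80), Cox7a2 (-0.82), Ech1 (-0.71), Ecm1 (-0.52), Glul (-0.56), Gstz1 (-0.54), Id3 (-0.64), Med16 (-0.60), Med23 (-0.63), Mylpf (-0.56), Ncoa3 (-0.72), Pcx (-0.50), Plin2 (-0.54), Ptges3 (-0.59), Stat5a (-0.70), Tcf12 (-0.57), Tcf3 (-0.71), Tpi1 (-0.71), mt-Nd1 (-0.53). A call on both was seen for Foxo4 (-0.37) and H6pd (-0.42), and a call with TMM alone for Id1 (-0.10), Med1 (-0.25), Ncor1 (-0.19), Sult1a1 (-0.31), Tef (-0.35). With the sign unchanged, 25 named genes passed toward WAT only on totals (Acsl1, Aplp2, Atp5g3, Cd3e, Chpt1, Ddit4, Ddx5, Gpat4, Hp, Itm2b, Mpc1, Mt1, Mt2, Nr1h2, Nr4a1, Nrg4, Oxct1, Psap, Rgs5, Rpl4, Sgk1, Slc2a1, Tek, mt-Cytb, mt-Nd4) and 7 passed toward liver only with TMM (Alas2, Cyp2e1, Ep300, Hsp90aa1, Id4, Mmp14, Zbtb16). The over-2-fold call of 19 named genes ended on totals, all in liver (Cox5a, Dbp, Dusp6, Fkbp4, Foxo3, Hsp90ab1, Junb, Klb, Lcn2, Ncoa2, Ndufs1, Nr1d2, Nr3c2, Pck1, Pgam1, Plin3, Pygl, Rnf144b, Stat5b), and 9 gained one in WAT (Adora1, Cd3e, Crebbp, Dusp1, Fbp2, Med24, Ncoa1, Per1, Pygm). With RLE size factors no named gene changed its call. Against a 4-fold difference 4080 genes were called, 1730 in liver and 2350 in WAT. The interaction called 3 genes without the filter on low counts and 5 with DESeq2. With no minimum level and with overlap allowed the promoter shares became 37.1% for CCAAT and 4.68% for the forkhead core in liver-higher windows. In WAT-higher windows that of the GC box became 53.6%.

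Leaving out each library in turn gave 12483 to 13160 genes that differed (5736 to 6045 in liver, 6744 to 7115 in WAT), 7146 to 7546 over 2-fold (3063 to 3213 and 4083 to 4390) and 1438 to 1743 at like levels. It gave 225 to 233 list members called in liver, 142 to 147 in WAT, 11 pairs and 0 interaction genes, with 0 named genes reversed, 6 losing and 20 gaining a call of any difference. The over-2-fold call of 6 named genes ended in at least one such fit (Fos, Foxo6, Lcn2, Pvalb, Pygl, Rnf144b) and 5 gained one (Cyp2e1, Id4, Mmp14, Trf, Zbtb16). Replicate numbers are shared between tissues but do not pair animals. The deviations of same-numbered libraries correlated at -0.10 to 0.04. With 2 depots per genotype the deviations mirror each other, so these values cannot tell paired from unpaired libraries. With the replicate block 12393 genes differed, 7151 over 2-fold, 1588 at like levels and 0 in the interaction. The livers were read less deeply than the depots, and a gene under 0.196 CPM in liver was at the floor.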
